A study of Homo sapiens with 14 samples.

Results

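The degrader dTAG47 uses the cereblon ubiquitin ligase and a ligand made for an engineered form of the FKBP1A product. The transcripts described here encode that ligase, FKBP immunophilins and the translation termination factor GSPT1. They were chosen by gene name: CRBN, DDB1, CUL4A, CUL4B and RBX1 for the ligase, FKBP1A, FKBP1B, FKBP4 and FKBP5 for the immunophilins, and GSPT1. All 10 were listed in each count table, which hold 17810 genes for the engineered lines and 19143 genes for the parental cells, and all 10 passed the filter on low counts in both. RNA-seq was carried out in CHP-134, a human neuroblastoma line with amplified MYCN. In the first experiment, CHP-134 lines that carry a lentiviral Tet-On construct for EGFP (the control protein) or for OmoMYC (a dominant-negative fragment of MYC) were cultured in tetracycline-approved serum and given 1 µg/ml doxycycline for 3 days, with 3 biological replicates each, so that both groups share the vector, its drug selection and doxycycline. In the second, parental CHP-134 cells in normal serum received 500 nM dTAG47 or the solvent DMSO for 18 h, with 4 biological replicates each. These parental cells carry no degradation tag, and the comparison was made to record effects of the compound itself. Each inducible line was made by lentiviral transduction and drug selection, and all 14 libraries come from 1 cell line.

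Cereblon, the product of CRBN, is the substrate receptor of a cullin-RING ubiquitin ligase. It docks on the adaptor DDB1, which binds the cullin scaffold CUL4A or CUL4B, and the cullin holds RBX1, the RING protein that recruits the ubiquitin-conjugating enzyme. dTAG47 joins a thalidomide-type ligand of cereblon to a ligand made for an engineered form of FKBP12, the product of FKBP1A, so that a protein fused to that form is brought to the ligase and degraded. FKBP proteins are peptidyl-prolyl isomerases. FKBP1A and its close relative FKBP1B bind FK506 and ryanodine receptors, whereas FKBP4 and FKBP5 are larger HSP90 co-chaperones of steroid receptors. GSPT1 is the release factor eRF3a, a protein that some cereblon ligands mark for degradation. Degradation acts on protein, and only RNA was measured here.

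Libraries held 28060817 to 38358128 counts in the engineered lines and 40861430 to 53451641 in the parental cells. Values are given in CPM, the count of a gene relative to the size of its library, with sizes scaled by TMM, a factor that balances libraries on the bulk of their genes. Of 9 adrenergic neuroblastoma markers, 7 were well expressed, with GATA3 at 236 to 338 CPM and MYCN at 2180 to 2940 CPM over the 14 libraries, whereas TH and DBH, enzymes of catecholamine synthesis, reached at most 1.05 and 1.41 CPM. Leukocyte and endothelial markers reached at most 1.18 CPM, and of the fibroblast markers PDGFRB lay at 15.7 to 50.5 CPM, COL1A1 at 2.47 to 36.5 CPM and COL3A1 at or below 0.443 CPM. The dTAG47 replicate 2 library held 202 counts of the epithelial keratin KRT8 and 46 of KRT18, against at most 4 and 0 counts in the other parental libraries. Leaving that library out left the count of called genes of the ligase and FKBP set at 0, although over all genes the calls with dTAG47 went from 23 to 84. The log2 fold changes of the set without it lay between -0.12 (CUL4B) and 0.13 (FKBP1B), with CRBN at -0.07 in place of -0.01.

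The transcription starts of these genes were inspected for the letters CACGTG, the canonical E-box to which MYC and N-MYC bind with MAX. CACGTG reads the same on both strands. RefSeq windows from 250 bases before to 50 bases after a start (assembly GRCh38.p14) were found for 9 of the 10 genes, and FKBP4 had no entry. The motif stood in the only window of RBX1 at 117 bases before the start, in 1 of 4 windows of CUL4B at 130 bases before the start, and in 1 of 2 windows of FKBP5 at 227 bases before the start. No window of CRBN, DDB1, CUL4A, FKBP1A, FKBP1B or GSPT1 held these letters. Of all 35116 windows in the same table, 2548 (7.26%) held the motif. This share is per window, whereas a gene can have several windows. The stretches around the matches are shown, 5′ to 3′ on the strand of the gene with the E-box in capitals, followed by the stretches just before a start of CUL4A and of GSPT1, the other genes of the set called lower under OmoMYC. RBX1 is at chr22:40951201-40951326 on the plus strand, CUL4B at chrX:120559963-120560088 on the minus strand, FKBP5 at chr6:35689077-35689165 on the minus strand, CUL4A at chr13:113209493-113209612 on the plus strand and GSPT1 at chr16:11915957-11916076 on the minus strand. Binding was not measured in these samples, and a match is a description of the letters only. The study draws on earlier N-MYC ChIP-seq of CHP-134 cells, which was not read here.
RBX1: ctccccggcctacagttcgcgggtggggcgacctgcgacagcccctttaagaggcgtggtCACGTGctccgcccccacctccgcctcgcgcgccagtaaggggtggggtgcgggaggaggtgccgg
CUL4B: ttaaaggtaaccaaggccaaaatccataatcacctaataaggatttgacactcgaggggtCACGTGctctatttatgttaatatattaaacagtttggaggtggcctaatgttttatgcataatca
FKBP5: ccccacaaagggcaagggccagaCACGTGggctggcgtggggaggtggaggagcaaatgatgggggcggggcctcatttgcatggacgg
CUL4A: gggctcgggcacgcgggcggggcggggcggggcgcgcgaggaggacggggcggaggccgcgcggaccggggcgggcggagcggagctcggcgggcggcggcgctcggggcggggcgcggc
GSPT1: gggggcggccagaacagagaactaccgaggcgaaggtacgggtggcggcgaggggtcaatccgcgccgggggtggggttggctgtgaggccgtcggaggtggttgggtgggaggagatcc

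To compare levels between genes, counts were divided by the length of the canonical transcript and expressed as RPKM (CPM per kilobase of transcript). In DMSO-treated parental cells the levels in RPKM ran from FKBP4 at 102 and DDB1 at 98, whose libraries overlapped, through FKBP5 at 76.7, FKBP1A at 62.5, GSPT1 at 43.3, RBX1 at 28.1, CUL4A at 19.9, CRBN at 17.1 and CUL4B at 11.4 to FKBP1B at 3.73. All other neighbours in this order had libraries that did not overlap. The receptor CRBN was therefore among the lower transcripts of its ligase, and the adaptor DDB1 among the highest. The DDB1 to CRBN ratio of RPKM values was 5.75 ± 0.361 (SD, n = 4) in DMSO and 7.29 ± 1.12 (n = 3) in EGFP libraries. FKBP1A encodes the protein for whose engineered form the ligand of dTAG47 was made. It exceeded CRBN 3.67 ± 0.221-fold (n = 4) in DMSO and 3.40 ± 0.267-fold (n = 3) in EGFP. FKBP1A also exceeded its relative FKBP1B, by 16.8 ± 1.02-fold and 17.2 ± 1.99-fold. CUL4B was the scarcer of the CUL4 scaffolds, at 0.569 ± 0.0376 of the CUL4A level in DMSO and 0.657 ± 0.0378 in EGFP libraries.

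In the EGFP libraries the order in RPKM differed mainly by RBX1. DDB1 led at 128, followed by FKBP4 at 92.8, FKBP5 at 66.3, FKBP1A at 60.1, GSPT1 at 47.4, CUL4A at 22.3 and CRBN at 17.8. CUL4B at 14.7 and RBX1 at 12.4 overlapped between libraries, and FKBP1B was lowest at 3.53. With all annotated exons as the length in place of the canonical transcript, GSPT1 moved from rank 5 to rank 2 in both EGFP and DMSO, and DDB1 from rank 1 to rank 3 in EGFP, so the order depends on the length used. Ratios moved too: with that length FKBP1A exceeded FKBP1B 7.72 ± 0.475-fold in DMSO and 7.9 ± 0.914-fold in EGFP, and CUL4B was at 0.134 ± 0.00856 and 0.155 ± 0.00871 of CUL4A. Genes in the set share exonic positions with others (CRBN with TRNT1, DDB1 with TKFC and CUL4A with PCID2 on the opposite strand, FKBP1B with MFSD2B on the same strand), and pseudogenes are named after FKBP1A (4), FKBP4 (5), RBX1 (2), CUL4A (1) and FKBP1B (1). Whether the counting used strand or discarded reads of such copies is not given in the sources used here, so these levels are uncertain to that extent.

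**Figure D1:**
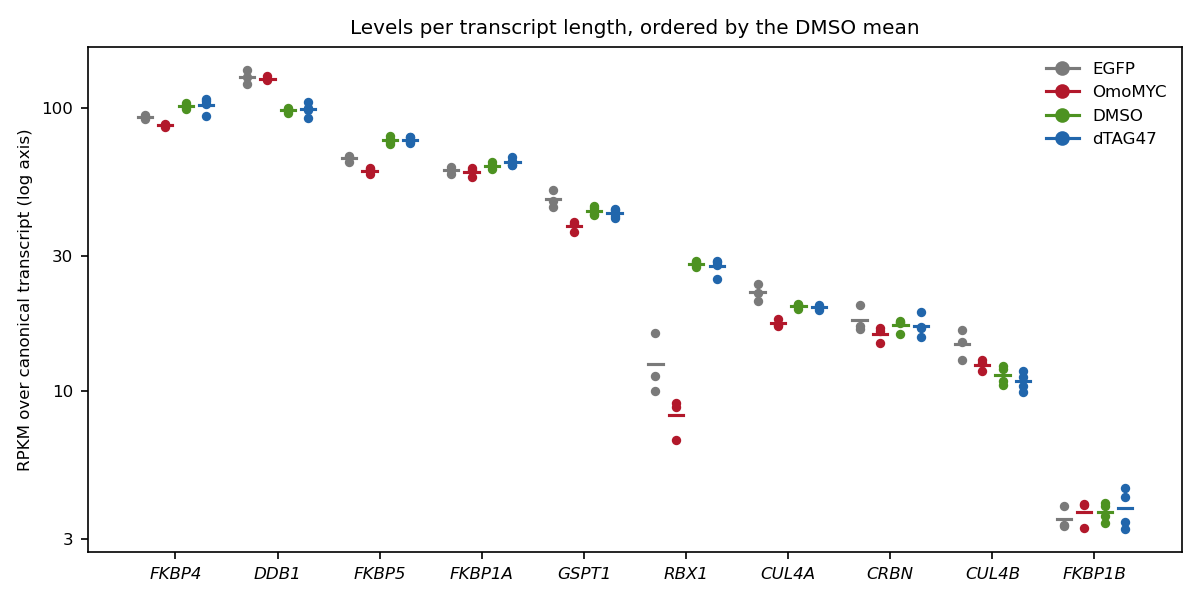
RPKM over the canonical transcript (log axis) for each of the 10 genes, ordered by the DMSO mean. Points are libraries of EGFP (grey), OmoMYC (red), DMSO (green) and dTAG47 (blue), and bars are group means. FKBP4 and DDB1 lead at 102 and 98 in DMSO, FKBP1B is lowest at 3.73, and RBX1 is the gene whose EGFP and OmoMYC libraries lie far below the parental ones.

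The first comparison asked what inhibition of N-MYC by OmoMYC does to these transcripts. CUL4A, CUL4B, RBX1 and GSPT1 were lower, by 15.8% to 34.4%. The receptor CRBN, the adaptor DDB1 and all 4 FKBP genes did not pass the test. Thus 4 of 10 genes were called lower and 0 higher at an FDR of 0.05 (edgeR's quasi-likelihood test, Benjamini-Hochberg over all 13803 genes tested), where 53.0% of all genes tested were called in either direction, 27.3% higher and 25.7% lower. For 6 of the 10 the EGFP and OmoMYC libraries did not overlap, against 62.3% of all genes. The share of genes that did not overlap lies near the background. Of the 4 calls, those of CUL4A and GSPT1 held in all 15 alternatives. The call of CUL4B was lost in 6 and its direction turned in 1, and that of RBX1 was lost in 2. The EGFP and OmoMYC lines were made separately, so a difference between the lines cannot be told apart from OmoMYC. Bulk RNA was measured, in which fewer expressing cells and less RNA per cell cannot be told apart. The median log2 fold change was -0.15 over the 10 genes and 0.01 over all genes, and the median size of the change regardless of sign was 0.15 against 0.31.

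The change moved with base composition. Over all genes with a known transcript GC content (97.4%), the median log2 fold change was -0.30 in the fifth with the lowest GC content (30.7% to 40.7%) and 0.34 in the fifth with the highest (59% to 76%). The transcripts of CUL4B (38.1% GC), CRBN (38.2%), GSPT1 (41%), CUL4A (42.9%) and FKBP5 (43.2%) are poor in GC, and those of FKBP1A (46.9%), RBX1 (47.9%), FKBP4 (51%), DDB1 (52.1%) and FKBP1B (53.1%) less so. Removal of a trend on GC content and length was therefore added after the data were seen, and it was run in 2 forms. Wherever the trend on GC content is named as removed, transcript length was removed jointly with it. The form run first also set the mean over genes equal between libraries, and the form run second kept each library at its TMM centre. They called 6 genes of the set each. With equal means 1 was higher and 5 lower, and with the TMM centre kept 2 were higher and 4 lower. Calls over all 13803 genes went from 7311 in the main fit to 8466 with equal means (3036 higher, 5430 lower). With the TMM centre kept they numbered 8158 (4337 higher, 3821 lower). The parts of base composition and of transcript length were not separated, and neither was tested.

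CUL4A (chr13:113862507-113921422 of hg19, plus strand), the more abundant CUL4 scaffold, measured 138, 129 and 121 CPM in the EGFP libraries and 104, 98.3 and 99.4 CPM with OmoMYC. The highest OmoMYC value was below the lowest EGFP value. The log2 fold change was -0.37 (SE 0.0723, 95% interval -0.53 to -0.21, FDR = 0.00183 by edgeR's quasi-likelihood test), a fall from 130 ± 8.66 to 101 ± 2.99 CPM (SD, n = 3 each). CUL4A was called lower in every alternative, at log2 fold changes of -0.45 to -0.23.

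CUL4B (chrX:119639775-119737929, minus strand), the X-linked paralog, measured 97.2, 87.6 and 76.0 CPM in the EGFP libraries and 74.2, 75.9 and 69.5 CPM with OmoMYC. The groups were separated narrowly, by 76.0 against 75.9 CPM. The log2 fold change was -0.25 (SE 0.093, 95% interval -0.45 to -0.04, FDR = 0.0435 by edgeR). This call sat at the threshold: it was lost without EGFP replicate 2 (FDR = 0.097), OmoMYC replicate 1 (0.101) or OmoMYC replicate 3 (0.106), and with the trend on GC content removed the log2 fold change was -0.07 (FDR = 0.142, equal means) or 0.04 (FDR = 0.444, TMM centre kept). The ratio of CUL4B to CUL4A in RPKM was 0.657 ± 0.0378 with EGFP and 0.713 ± 0.0388 with OmoMYC (n = 3 each), and the libraries overlapped.

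RBX1 (chr22:41347351-41369313, plus strand), the RING subunit, showed the largest change in the set. It measured 18.7, 13.3 and 11.7 CPM in the EGFP libraries and 10.3, 10.6 and 7.79 CPM with OmoMYC, from 237 to 594 counts. All OmoMYC libraries lay below all EGFP libraries, and EGFP replicate 1 stood above the other two. The log2 fold change was -0.61 (SE 0.176, 95% interval -1.0 to -0.22, FDR = 0.0143 by edgeR), and it was -0.40 (FDR = 0.0124) without EGFP replicate 1. The call was lost without OmoMYC replicate 3 (-0.52, FDR = 0.0533) and with the trend on GC content removed and the TMM centre kept (-0.43, FDR = 0.0519), and it was held with equal means (-0.54, FDR = 0.0257).

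GSPT1 (chr16:11961985-12009939, minus strand) measured 364, 333 and 318 CPM in the EGFP libraries and 277, 281 and 259 CPM with OmoMYC, again with no overlap. The log2 fold change was -0.31 (SE 0.0702, 95% interval -0.47 to -0.16, FDR = 0.00377 by edgeR), a fall from 339 ± 23.3 to 272 ± 11.4 CPM (n = 3 each). It was called lower in every alternative, at -0.39 to -0.14, the smallest size being that with the trend on GC content removed and the TMM centre kept.

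CRBN (chr3:3186312-3221411, minus strand), the receptor that dTAG47 binds, measured 43.8, 37 and 36.2 CPM with EGFP and 36.5, 35.7 and 32.1 CPM with OmoMYC, and the groups overlapped. The log2 fold change was -0.16 (SE 0.0951, 95% interval -0.38 to 0.05, FDR = 0.167 by edgeR), so that changes of -22.9% to 3.21% are within the interval. The direction was not stable. CRBN was called lower without EGFP replicate 3 (-0.25, FDR = 0.0369), and called higher with the trend on GC content removed, at 0.15 (FDR = 0.0173, equal means) and 0.26 (FDR = 0.000296, TMM centre kept).

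DDB1 (chr11:61066923-61110068, minus strand), the adaptor shared by all CUL4 receptors, measured 514, 542 and 576 CPM with EGFP and 546, 529 and 534 CPM with OmoMYC. These values overlapped, at a log2 fold change of -0.02 (SE 0.0625, 95% interval -0.16 to 0.12, FDR = 0.80 by edgeR). With the trend on GC content removed DDB1 was called lower, at -0.26 (FDR = 5.79e-07, equal means) and -0.16 (FDR = 0.000466, TMM centre kept).

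Among the immunophilins, FKBP1A (chr20:1349621-1373808, minus strand) measured 93.6, 91.4 and 88.2 CPM with EGFP and 92.6, 91.3 and 85.9 CPM with OmoMYC, overlapping values with a log2 fold change of -0.02 (95% interval -0.17 to 0.13, FDR = 0.841 by edgeR). It was called higher, at 0.17 (FDR = 0.000845), only in the alternative that removed the trend on GC content and kept the TMM centre. FKBP1B (chr2:24272571-24286551, plus strand) was scarce, at 86 to 140 counts per library, and measured 3.26 ± 0.306 CPM with EGFP and 3.45 ± 0.366 CPM with OmoMYC (n = 3 each). Its groups overlapped, and the log2 fold change of 0.08 (95% interval -0.24 to 0.40, FDR = 0.657 by edgeR) leaves changes of -15.2% to 32.2% within the interval.

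The HSP90 co-chaperones FKBP4 and FKBP5 each had OmoMYC libraries below all EGFP libraries without passing the test. FKBP4 (chr12:2904136-2914589, plus strand) measured 344, 340 and 350 CPM with EGFP and 324, 318 and 326 CPM with OmoMYC, a log2 fold change of -0.10 (95% interval -0.22 to 0.03, FDR = 0.179 by edgeR). FKBP5 (chr6:35541362-35696360, minus strand), which is also induced by glucocorticoids, measured 253, 252 and 241 CPM with EGFP and 227, 230 and 218 CPM with OmoMYC, a log2 fold change of -0.14 (95% interval -0.28 to -0.01, FDR = 0.0674). The alternatives moved these genes across the threshold in different ways. FKBP5 was called lower without EGFP replicate 1 (-0.15, FDR = 0.0286) or EGFP replicate 3 (-0.20, FDR = 0.018), and was at -0.07 and 0.04, not called, with the trend on GC content removed. FKBP4 was called lower with that trend removed, at -0.28 (FDR = 2.54e-07, equal means) and -0.17 (FDR = 0.000118, TMM centre kept).

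**Figure D2:**
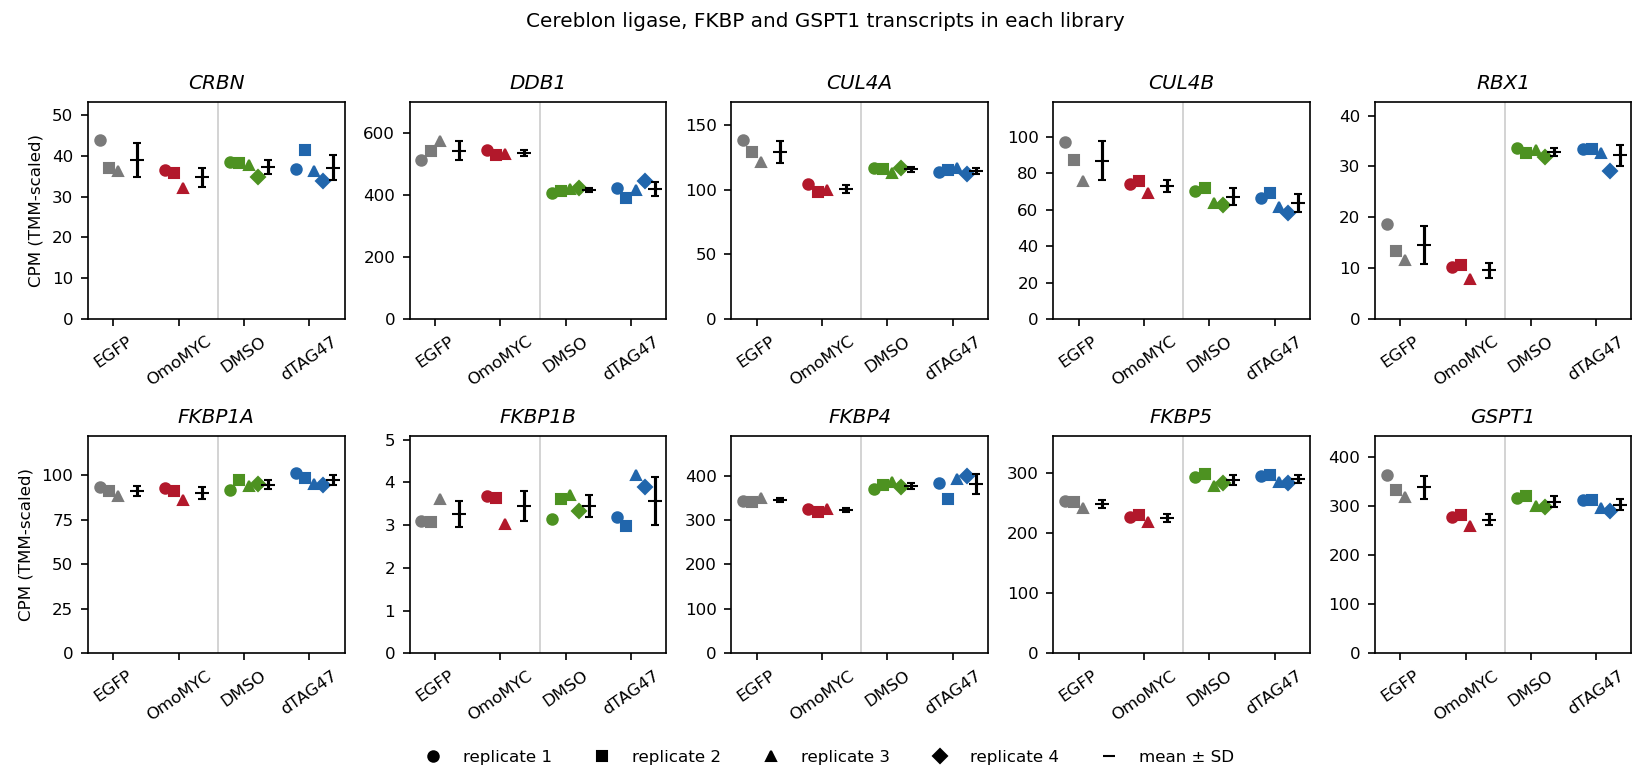
CPM of each gene in each library (vertical axes start at 0), with marker shape for the replicate number and black bars for the mean ± SD of each group. A grey line separates the experiments, which come from separate count tables. The OmoMYC libraries of CUL4A, CUL4B, RBX1, FKBP4, FKBP5 and GSPT1 lie below the EGFP libraries, and DMSO and dTAG47 libraries overlap for all 10 genes.

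The second comparison asked whether dTAG47 itself alters the transcripts of these genes in cells without a tagged target. None of the 10 genes passed the test: 0 of 10 were called by edgeR's quasi-likelihood test, 0 had an unadjusted p below 0.05, and in 0 did the groups separate, where 0.159% of the 14470 genes tested were called (0.117% higher and 0.0415% lower), 7.28% had an unadjusted p below 0.05 and 3.34% had groups that did not overlap. DESeq2 and limma-voom also called 0 of the 10, where over all 14470 genes they called 59 and 23. FDR values lay between 0.732 and 0.965, with 5 log2 fold changes above 0 and 5 below. The intervals bound the changes that remain possible, and the widest, for FKBP1B, reached a rise of 22.9%.

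CRBN, which encodes the receptor bound by the cereblon ligand of dTAG47, measured 38.5, 38.3, 37.8 and 34.8 CPM in DMSO and 36.7, 41.3, 36.3 and 33.9 CPM with dTAG47. The highest and the lowest value were both in the dTAG47 group, and the log2 fold change was -0.01 (95% interval -0.14 to 0.12, FDR = 0.965 by edgeR), that is between -9.2% and 8.63%. FKBP1A measured 91.6, 97.4, 94.1 and 95.3 CPM in DMSO and 101, 98.2, 95.3 and 94.7 CPM with dTAG47, overlapping groups which differed by 0.04 on the log2 scale (95% interval -0.05 to 0.13, FDR = 0.772). GSPT1 measured 316, 321, 301 and 298 CPM in DMSO and 313, 312, 296 and 290 CPM with dTAG47, with overlapping groups and a log2 fold change of -0.03 (95% interval -0.12 to 0.06, FDR = 0.827).

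The groups also overlapped for the remaining ligase subunits. DDB1 measured 407, 415, 419 and 423 CPM in DMSO and 424, 392, 417 and 445 CPM with dTAG47 (log2 fold change 0.01, 95% interval -0.08 to 0.10). CUL4A spanned only 113 to 117 CPM in DMSO and 112 to 117 CPM with dTAG47 (-0.02, 95% interval -0.10 to 0.07). RBX1 measured 33.7, 32.6, 33.3 and 31.9 CPM in DMSO and 33.5, 33.5, 32.7 and 29.1 CPM with dTAG47 (-0.03, 95% interval -0.15 to 0.08). CUL4B had the largest log2 fold change of the set in size, -0.07 (95% interval -0.20 to 0.06, FDR = 0.732 by edgeR), from 67.1 ± 4.67 to 63.7 ± 4.83 CPM (n = 4 each). Within replicates 1 and 2 both dTAG47 values (66.3 and 69.1) were below both DMSO values (70.2 and 72.0), as within replicates 3 and 4 (61.3 and 58.3 against 63.9 and 62.4). With a factor for these replicate numbers the FDR of CUL4B was 0.167, and with the trend on GC content removed its log2 fold change was 0.00. The other FKBP genes gave log2 fold changes of 0.05 for FKBP1B, 0.01 for FKBP4 and 0.01 for FKBP5, with groups that overlapped.

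Within the parental experiment, replicates 1 and 2 stood apart from replicates 3 and 4 for some genes, in DMSO and dTAG47 alike. CUL4B measured 66.3 to 72.0 CPM in replicates 1 and 2 and 58.3 to 63.9 CPM in replicates 3 and 4, FKBP5 measured 292 to 297 against 278 to 284 CPM, and GSPT1 measured 312 to 321 against 290 to 301 CPM. These 3 of 10 genes did not overlap between the replicate numbers, where 21.6% of all genes tested did not. No label names a batch. With a factor for these replicate numbers, or within replicates 1 and 2 or replicates 3 and 4 alone, 0 of the 10 genes were called with dTAG47. Over all genes the factor called 374 higher and 420 lower of 14470. Replicates 1 and 2 alone called 4 higher and 3 lower of 14506, and replicates 3 and 4 alone 426 and 470 of 14528.

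**Figure D3:**
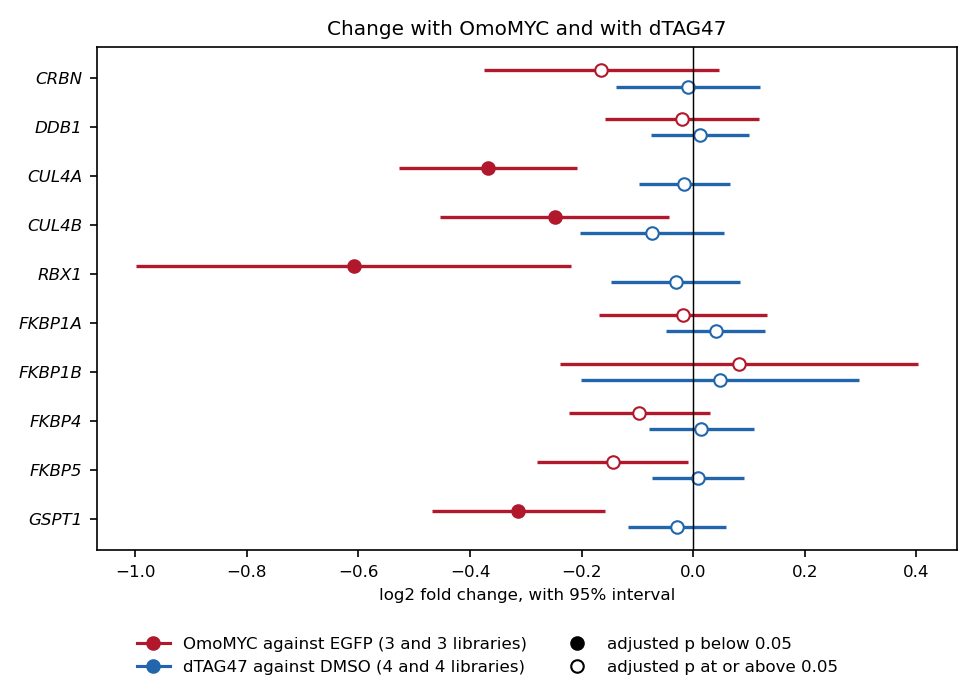
Log2 fold change with its 95% interval for each gene, OmoMYC against EGFP in red (3 libraries each) and dTAG47 against DMSO in blue (4 libraries each), filled where the FDR is below 0.05. CUL4A, CUL4B, RBX1 and GSPT1 are filled and below 0 for OmoMYC, and every dTAG47 interval includes 0.

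EGFP and DMSO are the controls of separate experiments that differ in engineering, serum, doxycycline, time and count table, which cannot be told apart, so their levels are set side by side with no test. RBX1 stood out, at 14.6 ± 3.70 CPM in EGFP (n = 3) against 32.9 ± 0.784 CPM in DMSO (n = 4), a ratio of 0.443 at the 2.3rd percentile of the 13424 genes tested in both tables. The 446 genes within 10% of the length of the RBX1 transcript had a median log2 ratio of 0.04, against -1.17 for RBX1. The part of transcript length in this difference was not tested. DDB1 and CUL4B were higher in EGFP, at ratios of 1.31 and 1.30, and the other 7 genes lay between 0.865 and 1.12.

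Genes that work with the ligase and the FKBP proteins were read from 9 lists. The counts of these lists with OmoMYC stand against 53.0% of all genes called, 27.3% higher and 25.7% lower. The background moved with the settings too. With the trend on GC content removed, 8466 of 13803 genes were called with equal means (3036 higher, 5430 lower). With the TMM centre kept, 8158 were called (4337 higher, 3821 lower). Without OmoMYC replicate 2, 6289 of 13925 were called, and without OmoMYC replicate 3, 5712 of 13920. In the comparison of OmoMYC with EGFP, 18 of 31 genes of cullin-RING ligase assembly and neddylation, the modification that activates cullins, were called (58.1%), 1 higher (3.23%) and 17 lower (54.8%), with a median log2 fold change of -0.25 against 0.01 over all genes. NAE1, a subunit of the NEDD8-activating enzyme, fell from 139 ± 18.4 to 81.4 ± 5.09 CPM (n = 3 each, log2 fold change -0.77, FDR = 0.000126 by edgeR). UBE2D1, a ubiquitin-conjugating enzyme, fell by 0.55 on the log2 scale, and CAND2, an exchange factor for cullins, rose by 0.75. With the trend on GC content removed, 19 of the 31 were called with equal means, 2 higher and 17 lower, and 11 with the TMM centre kept, 4 higher and 7 lower. NAE1 was then at -0.48 and -0.38 and CAND2 at 0.28 and 0.39, all called, and UBE2D1 was at -0.13 (FDR = 0.0656) and -0.02 (FDR = 0.772), not called. Of 24 other DDB1 substrate receptors and adaptors, 8 were called higher (33.3%) and 9 lower (37.5%; median 0.00), among them WDTC1 (0.68), AMBRA1 (0.63) and DCAF13 (-0.64). Without OmoMYC replicate 3, 11 of the 24 were called. With the trend removed, at equal means and at the TMM centre, WDTC1 was at 0.25 and 0.36, AMBRA1 at 0.22 and 0.32 and DCAF13 at -0.29 and -0.18, all called.

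Transcripts of proteins that cereblon marks for degradation in the presence of a drug were split in direction. Of 18 neosubstrates tested, 5 were called higher (27.8%, near the 27.3% of all genes), including the zinc finger genes ZNF276 (0.86) and ZNF653 (0.83), and 3 lower (16.7%), including DTWD1 (-0.74). IKZF1 and IKZF3, the lymphoid targets of lenalidomide, did not pass the filter. With the trend on GC content removed and equal means, 16 of the 18 were called, 6 higher and 10 lower, and with the TMM centre kept 9, 6 higher and 3 lower. Over all 13803 genes these forms called 8466 (3036 higher, 5430 lower) and 8158 (4337 higher, 3821 lower). ZNF276 was then at 0.43 and 0.53 and ZNF653 at 0.40 and 0.50, with DTWD1 at -0.68 and -0.57, all called. Of 6 endogenous substrates and partners of cereblon, 2 were called higher and 2 lower (33.3% each). KCNMA1, a potassium channel, was called higher (0.36), MEIS2, a homeobox factor, lower (-0.69), and SLC16A1, the lactate transporter MCT1, lower (-0.57), and without OmoMYC replicate 2 the genes called in this list numbered 2 in place of 4, KCNMA1 being at 0.29 (FDR = 0.0512).

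For the FKBP side, 3 of 10 other FKBP family genes were called higher and 3 lower (30% each), near the background. FKBP14, an isomerase of the endoplasmic reticulum, fell from 25.7 ± 2.50 to 14.4 ± 1.15 CPM (n = 3 each, log2 fold change -0.83, FDR = 9.66e-05 by edgeR), and FKBP8 rose by 0.48 on the log2 scale, which with the trend on GC content removed was 0.07 with equal means, not called, and 0.17 with the TMM centre kept (FDR = 0.000213 by edgeR). FKBP2 was called higher at 1.05 (FDR = 0.0122 by edgeR), but its EGFP libraries were spread (9.70 ± 4.91 CPM, n = 3) and the call was lost in 6 of 15 alternatives, among them DESeq2 (FDR = 0.0522) and the fit without OmoMYC replicate 3 (FDR = 0.0568). Without EGFP replicate 1 its log2 fold change was 0.67. With the trend on GC content removed and equal means, 0 were called higher and 2 lower, and with the TMM centre kept 2 higher and 2 lower. Among 17 FKBP partner proteins, 1 was called higher (5.88%), the ryanodine receptor RYR1 (1.75, from 1.81 ± 0.539 to 6.13 ± 0.814 CPM), and 6 lower (35.3%), including the HSP90 co-chaperone PTGES3 (-0.81) and the progesterone receptor PGR (-1.45). Those called, 7 in all, were 12 and 13 in the forms with the trend on GC content removed, with RYR1 at 1.10 and 1.21, PTGES3 at -0.52 and -0.42 and PGR at -1.48 and -1.37.

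FKBP5 is a glucocorticoid target, and of 11 other genes of the glucocorticoid response 7 were called higher (63.6%) and 2 lower (18.2%; median 0.39 against 0.01 over all genes). TSC22D3, which encodes the mediator GILZ, rose from 17 ± 0.44 to 28.7 ± 0.948 CPM (n = 3 each, log2 fold change 0.76, FDR = 3.59e-05 by edgeR), ANGPTL4 rose by 0.73 on the log2 scale and the kinase SGK1 fell by 0.85. The call of ANGPTL4 was lost in 4 of 15 alternatives, including those without EGFP replicate 2 (FDR = 0.0808) and without OmoMYC replicate 3 (FDR = 0.0893). With the trend on GC content removed TSC22D3 was at 0.58 and 0.69 and SGK1 at -0.87 and -0.76, all called, and ANGPTL4 at 0.34 and 0.44, not called. The genes of this list called higher then numbered 4 with equal means and 5 with the TMM centre kept. DESeq2 called 5 higher, limma-voom 7, and the fit without OmoMYC replicate 3 called 4. Each of these fits called 2 lower. FKBP5 itself, as above, was not called. Beside GSPT1, 6 of 18 genes of translation termination and nonsense-mediated decay were called higher (33.3%) and 5 lower (27.8%): UPF1, the helicase of the decay pathway, rose by 0.98 and SMG6, its endonuclease, by 0.61 on the log2 scale, and ABCE1, which recycles ribosomes, fell by 0.69. With the trend on GC content removed, at equal means and at the TMM centre, 3 and 6 were called higher and 8 and 6 lower, with UPF1 at 0.49 and 0.59, SMG6 at 0.23 and 0.34 and ABCE1 at -0.39 and -0.28. When EGFP replicate 2 was left out, 7 of these 18 were called, and likewise when either OmoMYC replicate 2 or OmoMYC replicate 3 was left out. Over all genes those fits called 5984, 6289 and 5712, against 7311 in the main fit. In the integrated stress response, which loss of GSPT1 protein is known to trigger, 3 of 10 genes were called higher (30%), PPP1R15A (1.13) and TRIB3 (1.12) among them, and 5 lower (50%), including DDIT4 (-0.98). With the trend removed PPP1R15A was at 0.78 and 0.89 and TRIB3 at 0.72 and 0.83, all called.

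With dTAG47, 0 genes were called in each of the 9 lists by edgeR and by limma-voom, and list medians lay between -0.05 and 0.08. DESeq2 called 1 gene, in the integrated stress response. In that list 1 gene was also called with no filter, without dTAG47 replicate 1 and without dTAG47 replicate 2. With the replicate block up to 2 genes of a list were called, where 668 of all 14470 genes were. With a factor for replicates 1 and 2 against 3 and 4 up to 3 were called, where 794 of 14470 were. Among these were 3 of 11 other FKBP family genes and 3 of 18 neosubstrates, all higher. The same fit called lower 2 genes of ligase assembly and neddylation, 2 other DDB1 receptors, 1 endogenous cereblon partner and 1 FKBP partner. In replicates 3 and 4 alone up to 3 were called, where 426 of 14528 genes were higher and 470 lower. So the 0 for the lists depended on these choices. At an unadjusted p below 0.05 there were 7 of 145 different genes (4.83%), below the 7.28% of all genes, named here after their values were seen: SALL4 (0.21), a neosubstrate of thalidomide, ZNF692 (0.22), PHIP (-0.14), FKBP2 (0.18), FKBP9 (0.11), RYR3 (-0.15) and DDIT4. DDIT4, a stress-induced inhibitor of mTORC1, had the largest difference of these, although it did not pass the test in the main fit. It was the only 1 of the 10 integrated stress response genes with an unadjusted p below 0.05 by edgeR, the list in which some other fits called 1 gene. It measured 36.4 ± 3.40 CPM in DMSO and 49.1 ± 6.25 CPM with dTAG47 (n = 4 each, log2 fold change 0.43, FDR = 0.0567 by edgeR). Its groups did not overlap, as was so for 3.34% of all genes tested.

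**Figure D4:**
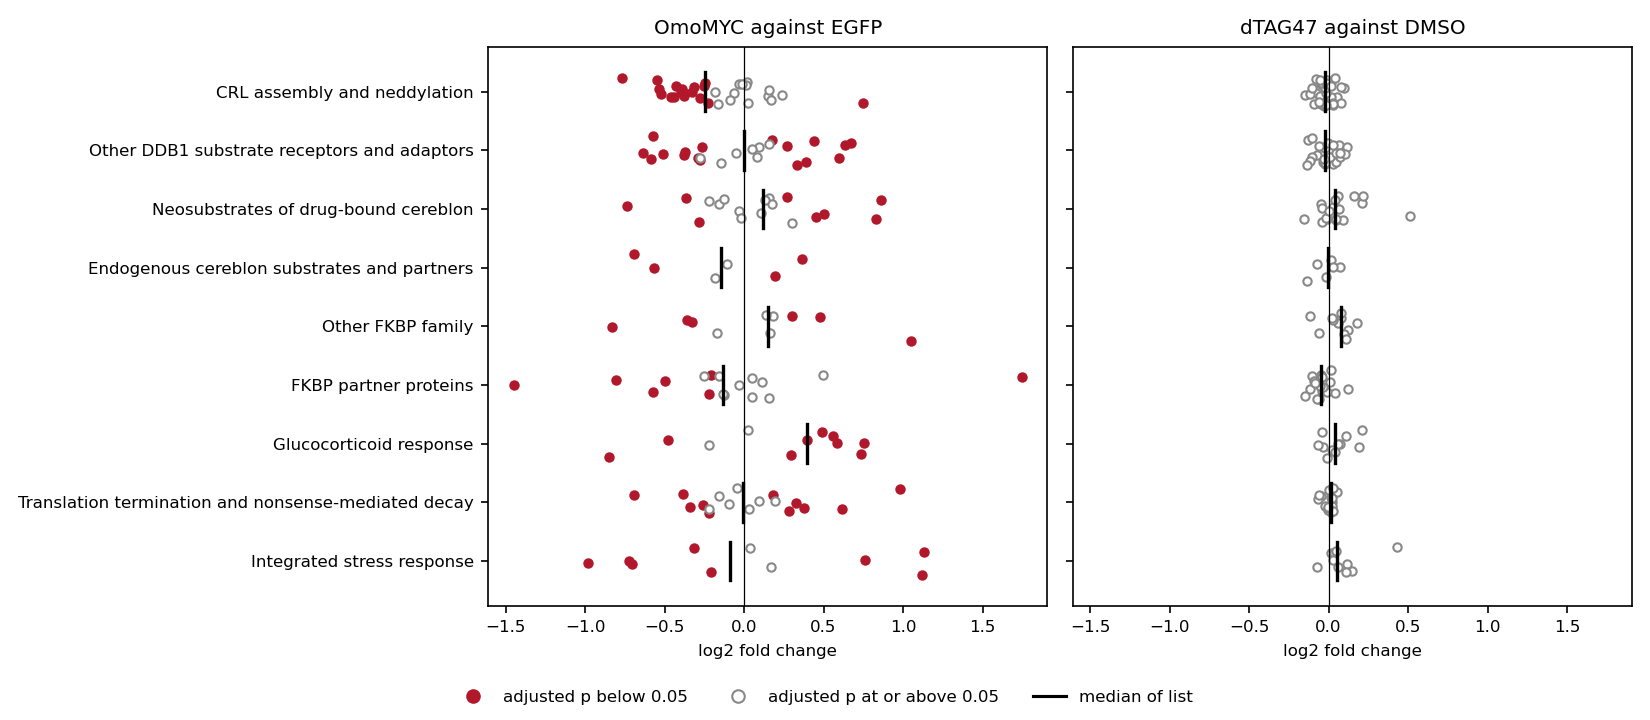
Log2 fold change of each tested gene of the 9 lists, OmoMYC against EGFP on the left and dTAG47 against DMSO on the right, filled red where the FDR is below 0.05, with a black bar for the list median. For OmoMYC, 17 of the 18 called genes of ligase assembly and neddylation lie below 0, where 27.3% of all genes were called higher and 25.7% lower. With the trend on GC content and length removed and the TMM centre kept, that list had 4 called higher and 7 lower. For dTAG47 no point is filled.

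The pattern over the 14 libraries was compared by the root mean square difference of log2 CPM, each gene centred on its own mean. The genes most like CRBN were PPP1R12A (0.043), ATP2B1 (0.045) and BTBD1 (0.047), where the median over 13423 genes was 0.258. Those most like FKBP1A were SLC31A1 (0.028), TRNAU1AP (0.032) and ZFR (0.035), against a median of 0.243. Within the set, CUL4A and GSPT1 were the closest at 0.045, and DDB1 and RBX1 the farthest apart at 0.955. The nearest genes were picked as the smallest of these differences, so they lie below the median by choice. The values span both experiments, and DDB1 and RBX1 had EGFP to DMSO ratios of 1.31 and 0.443. The part of the difference between experiments was not tested. These are descriptions over libraries that share a cell line and, within each experiment, a count table.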

How the data were processed

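RNA-seq counts were analysed for 14 libraries of CHP-134 cells (3 EGFP, 3 OmoMYC, 4 DMSO, 4 dTAG47). The deposited files hold raw counts per gene, which the authors made by trimming with Cutadapt, alignment to hg19 with STAR and counting with FeatureCounts. Annotation, strandedness and the handling of multi-mapping reads are not given in the sources used here. Each table was fitted separately in R 4.3.3 with edgeR 4.0.16 (filterByExpr, TMM, robust quasi-likelihood test, Benjamini-Hochberg over all genes, FDR 0.05). DESeq2 1.42.0 (named in the methods of the study) and limma 3.58.1 were alternatives, and the fits were tested on simulated data. CPM used TMM-scaled library sizes, with a prior count of 2 for log2 CPM. Coordinates, transcript lengths and GC content came from GENCODE v44 lifted to GRCh37 (hg19), and promoters from RefSeq. Named genes are the 10 members, the 3 largest called changes of at least 1 CPM per list, and the nearest patterns to CRBN and FKBP1A. Values of 1 list gene and of 1 marker are not reported here. The members and lists were chosen with earlier results of these data known. The 2 forms of the GC and length trend and the length over all annotated exons were added after seeing the data, and the second form followed after the result of the first was seen. The main fits did not pair libraries by replicate number. Correlations between same-numbered libraries were -0.07 to 0.29 for EGFP and OmoMYC and 0.01 to 0.16 for DMSO and dTAG47. With so few pairs they cannot show whether the numbers pair the libraries.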

Additional observations from a re-analysis of the deposited data

How the results depend on the processing

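Over DESeq2, limma-voom, RLE factors, library size only, no filter and at least 10 counts in every library, 3 or 4 members were called lower with OmoMYC, and leaving out 1 library gave 2 to 6, the lowest without OmoMYC replicate 3 and the highest without EGFP replicate 3. Over all genes the fits without OmoMYC replicate 3 and without EGFP replicate 3 called 5712 and 8249. CUL4A and GSPT1 were called in every alternative. CUL4B also lost its call with library size only (FDR 0.0519) and with at least 10 counts in every library (0.0503). Members called with dTAG47 numbered 0 in every alternative. The replicate block called 8100 genes with OmoMYC and 668 with dTAG47, with 4 and 0 members, but the numbers share no stated source, and not every library correlated best with its own number. Calls over all genes with dTAG47 (23) were 59 by DESeq2, 123 and 139 with the trend on GC content removed (equal means, TMM centre kept), 794 with a factor for replicates 1 and 2 against 3 and 4, 7 in replicates 1 and 2 alone and 896 in replicates 3 and 4 alone, and 6 to 84 without 1 library, 84 being without dTAG47 replicate 2. The cause was not tested. For OmoMYC the split was 3766 higher and 3545 lower, and with the trend removed and equal means 3036 and 5430.

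With that trend removed, these log2 fold changes with OmoMYC turned. With equal means they were CRBN 0.15, FKBP1A 0.06, FKBP1B -0.01, DCUN1D4 0.01, DCAF15 -0.02, WIZ -0.13, PATZ1 -0.16, BSG -0.19, FKBP3 0.03, PER1 -0.03, SMG5 -0.14 and SMG9 -0.04. With the TMM centre kept they were CRBN 0.26, CUL4B 0.04, FKBP1A 0.17, FKBP5 0.04, RNF7 0.09, DCUN1D1 0.01, DCUN1D4 0.12, COPS3 0.02, GLMN 0.06, UBE2D3 0.02, ZMYM2 0.01, WIZ -0.02, PATZ1 -0.05, BSG -0.09, FKBP3 0.14, FKBP7 0.04 and SMG5 -0.03. With dTAG47, where no member was called, values near 0 also turned: with equal means CRBN 0.06, DDB1 -0.01, CUL4A 0.02, CUL4B 0.00, FKBP4 0.00 and GSPT1 0.02, with the TMM centre kept CRBN 0.05, DDB1 -0.02, CUL4A 0.02, FKBP4 -0.01 and GSPT1 0.02, in replicates 1 and 2 alone CRBN 0.04, DDB1 0.00, RBX1 0.02, FKBP1B -0.13 and FKBP4 -0.02, and with library size only FKBP5 0.00. Without 1 library the ranges were CRBN -0.07 to 0.03, DDB1 -0.02 to 0.04, RBX1 -0.05 to 0.02, FKBP1B -0.04 to 0.13, FKBP4 -0.01 to 0.06 and FKBP5 -0.01 to 0.02. Counting depth limits FKBP1B, at 86 to 210 counts per library, and RBX1 in the engineered lines.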
